A study of Homo sapiens with 6 samples.

Results

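Collagens are the structural proteins of the extracellular matrix, and each molecule is built from 3 chains wound into a triple helix. Fibrillar collagens assemble into the banded fibrils of interstitial tissue, whereas the type IV chains form the network of basement membranes. The remaining families include the beaded filaments of type VI, the collagens that sit on fibril surfaces, and chains with a transmembrane segment. In breast tissue most fibrillar collagen is made by fibroblasts, and carcinoma cells add basement membrane and interstitial chains of their own. The genes described here are all rows of the count table with a collagen chain symbol other than COL17A1, which comes to 43 of 37887 rows. They were divided by their known assembly into 11 fibrillar, 9 basement membrane and 23 other collagens.

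MDA-MB-436 is a human triple-negative breast cancer line with a mutant BRCA1 gene, and the cells used stably carried an inducible shRNA against MUC1, which encodes a transmembrane mucin. Cells were cultured in triplicate with 0.1% DMSO (control) or with 500 ng/ml doxycycline to switch the shRNA on (shMUC1), giving 3 libraries in each group. The sample titles name a control shRNA, whereas the treatment labels give DMSO, and the vehicle reading was used. Doxycycline alone was not analysed here, and all shMUC1 libraries carried the same shRNA. For this reason the effects of doxycycline, of the shRNA on other transcripts and of silencing cannot be told apart. The length of treatment is not given for this line. Whether the line was 1 clone or a pool is also not given, and p-values measure the spread between these cultures only.

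Library totals ran from 18678307 to 27825546 counts. MUC1 had 93, 84 and 102 counts in control and 72, 51 and 34 counts in shMUC1 libraries, and fell by 0.84 on the log2 scale (SE 0.214, adjusted p = 0.00119, edgeR). VIM, a mesenchymal filament gene that marks this line, was at 718, 744 and 692 counts per 1000000 counts (CPM) in control and 411, 445 and 395 CPM in shMUC1 libraries. ESR1 and PGR had at most 12 and 4 counts in a library. ERBB2 was detected in every library, at 47.3, 42.6 and 44.2 CPM in control and 39.3, 39.1 and 38.4 CPM in shMUC1 libraries (log2 fold change -0.20, SE 0.0613, adjusted p = 0.0074, edgeR). Of 10 fibroblast markers, 3 were tested (FAP, PDPN and PDGFRB) and 0 were called, beside 48.7% of all genes tested. DCN, LUM and DPT were at 0 in every library, and PDGFRA, THY1, TCF21 and PI16 had at most 11 counts in a library. The summed level of the list was 15.8 to 17.2 CPM in control and 14.8 to 19.9 CPM in shMUC1 libraries. FAP made up most of this sum (mean 12.4 CPM in control and 13.9 CPM in shMUC1 cells). Of 10 epithelial markers, 4 were tested and all 4 rose (EPCAM, CDH1, KRT8 and KRT18), where 25.2% of all genes tested rose. GRHL2 was at 0, and KRT19, KRT5, KRT14, RAB25 and ESRP1 had at most 19 counts in a library. The summed level was 541 to 575 CPM in control and 1092 to 1133 CPM in shMUC1 libraries. Most of it was KRT8 (mean 426 CPM in control and 825 CPM in shMUC1 cells) and KRT18 (131 and 266 CPM). The part of this difference in the collagen results was not tested. These are bulk libraries, in which fewer cells of a kind and less RNA per cell cannot be told apart.

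COL4A1 and COL4A2 encode the chains of the most widespread type IV molecule and are transcribed away from each other from one shared promoter region on chromosome 13. By RefSeq (GRCh38.p14) their starts lie 127 bases apart, at 110307157 on the minus strand and 110307284 on the plus strand. The other type IV genes are arranged in the same way, with starts 419 bases apart for COL4A4 and COL4A3 on chromosome 2 and 380 bases apart for COL4A6 and COL4A5 on chromosome X. The whole of the interval between the first pair, chr13:110307158-110307283 on the plus strand, is shown because both genes rose together, with a CCAAT box and a GGGCGG (GC box) word in capitals:
COL4A1-COL4A2 interval: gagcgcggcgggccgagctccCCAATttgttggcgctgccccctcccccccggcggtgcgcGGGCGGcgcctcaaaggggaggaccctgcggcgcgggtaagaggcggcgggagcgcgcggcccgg
Of its 126 bases 80.2% were G or C, and TATAAA did not occur on either strand. Over all 35116 RefSeq promoters (250 bases before to 50 after the start, both strands), 34.6% held CCAAT, 45.0% held GGGCGG and 11.5% held TATAAA. Of the 31 collagens with a promoter entry, 9, 18 and 4 held these words.

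Many collagen transcripts are known targets of the miR-29 family, whose mature forms share 1 seed. They are shown with the seed (bases 2 to 8) in capitals, since a TGGTGCT word in a 3' untranslated region (UTR) pairs with it:
hsa-miR-29a-3p: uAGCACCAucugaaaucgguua
hsa-miR-29b-3p: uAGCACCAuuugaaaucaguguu
hsa-miR-29c-3p: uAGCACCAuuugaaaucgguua
In GENCODE 29 transcripts with the longest coding sequence, 28 of 43 collagens (65.1%) held the word in the 3' UTR, against 14.3% of 13015 genes tested that have such a region. Among the 25 tested collagens, 17 (68.0%) held the word. It was present in 10 of 11 fibrillar, 8 of 9 basement membrane and 10 of 23 other collagens. Genes with the word had longer UTRs (median 2680 bases) than genes without it (868 bases), and the collagen median was 1150 bases. Windows of 29 bases from genes that moved in opposite directions (GRCh38, gene strand, word in capitals) were as follows:
COL3A1, chr2:189012005-189012033: aaatgtctcaaTGGTGCTataataaataa
COL27A1, chr9:114311289-114311317: tgtgaaatcgcTGGTGCTcacaattgtct
COL4A5, chrX:108696473-108696501: gctgccgtcaaTGGTGCTactatatatga
COL5A2, chr2:189032863-189032891: tcctttaatgaTGGTGCTaaaattcttcc
COL4A1, chr13:110150316-110150344: atgtcacaacaTGGTGCTacttcttcttc
COL4A2, chr13:110512208-110512236: aagggccatttTGGTGCTtattcttaact
The first 3 of these genes were lower in shMUC1 cells and the last 3 were higher. The word stood in 8 of 11 lower, 3 of 4 higher and 6 of 10 uncalled collagens. Over all genes the median log2 fold change was 0.0072 with the word and 0.014 without it, and 29.9% of genes with the word were called lower against 24.2% of genes without it.

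Of the 43 collagens, 25 had enough counts to be tested and 18 did not. At an adjusted p under 0.05, 4 rose and 11 fell in shMUC1 cells, which is 16% and 44% of those tested, beside 25.2% higher and 23.6% lower (48.7% in either direction) among all 15355 genes tested. Past a fold change of 2, 0 rose and 6 fell, where 2.21% of all genes rose and 3.74% fell (5.95% in either direction). For 16 of 25 collagens the CPM ranges of the groups were separate, against 54.8% of all genes tested. The median log2 fold change of the tested collagens was -0.22 (range -1.82 to 0.71), and that of all genes was 0.00058. COL8A2 reached the level of the low-count filter (0.401 CPM in 3 libraries) in the control libraries alone, so that it could enter the test only by being higher there. It is included in the 11 falls and in the 6 past 2-fold. COL15A1 and COL13A1 reached the filter level in all 3 control and 2 shMUC1 libraries.

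**Figure D1:**
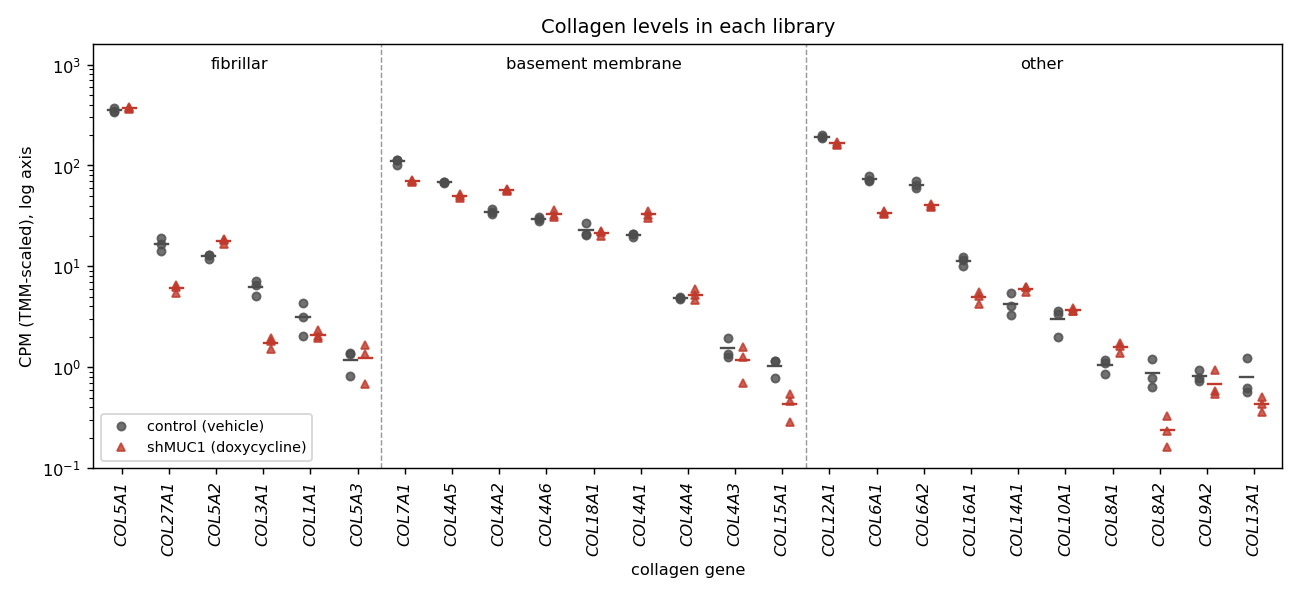
CPM on a log axis for the 25 tested collagens in each library, with control libraries as grey circles, shMUC1 libraries as red triangles and group means as bars. COL5A1 and COL12A1 stand above 150 CPM in every library, and COL4A1 and COL4A2 are higher in all 3 shMUC1 libraries while COL3A1, COL27A1 and COL6A1 are lower in all 3.

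The fibrillar class had 6 tested members, of which 1 (16.7%) rose and 3 (50%) fell, beside 25.2% and 23.6% of all genes tested. Their median log2 fold change was -0.28. The median was -0.10 without control replicate 3, -0.63 without the low-count filter, -0.62 for genes averaging 50 counts or more and -0.67 with DESeq2. COL5A1, the main chain of type V collagen, which nucleates fibrils, was the most abundant collagen of all. It was at 348, 336 and 373 CPM in control and 374, 380 and 362 CPM in shMUC1 libraries. The groups overlapped, and the log2 fold change of 0.08 (SE 0.0348) missed the threshold (adjusted p = 0.0565), although 6 of 15 other settings put it past the threshold at a log2 fold change of at most 0.11. COL5A2, its partner chain, was at 13.1, 11.9 and 13.0 CPM in control and 18.2, 18.5 and 16.6 CPM in shMUC1 libraries. All 3 shMUC1 libraries were above every control library, and COL5A2 rose by 0.49 on the log2 scale (SE 0.0964, adjusted p = 5.37e-05), or 1.40-fold. COL5A3, the third type V chain, was at 1.37, 0.821 and 1.36 CPM in control and 0.688, 1.36 and 1.67 CPM in shMUC1 libraries, with overlapping groups.

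COL3A1, the chain of type III collagen, which is found with type I in elastic and healing tissue, was at 7.21, 5.13 and 6.50 CPM in control and 1.81, 1.94 and 1.51 CPM in shMUC1 libraries. The groups were well apart, and COL3A1 was 3.54-fold lower (log2 fold change -1.82, SE 0.195, adjusted p = 5.19e-10). It lies at chr2:188974320-189012746 on the plus strand of GRCh38, tail to tail with COL5A2 at chr2:189031896-189225312 on the minus strand. The ends of these genes are 19149 bases apart with 0 protein-coding genes between them, and they moved in opposite directions. COL27A1, a fibrillar chain of cartilage, was at 14.2, 18.9 and 16.8 CPM in control and 6.59, 6.17 and 5.48 CPM in shMUC1 libraries. Every shMUC1 library was below every control library, and COL27A1 was 2.73-fold lower (log2 fold change -1.45, SE 0.121, adjusted p = 1.09e-12).

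COL1A1, one of the chains of type I collagen, the main protein of bone and dermis, was at 2.05, 3.12 and 4.38 CPM in control and 2.32, 2.06 and 1.94 CPM in shMUC1 libraries. The first control library lay within the shMUC1 range. COL1A1 fell by 0.60 on the log2 scale (SE 0.246, adjusted p = 0.0417), a call lost in 8 of 15 other settings, and without control replicate 3 the log2 fold change was -0.31 (adjusted p = 0.39). Its partner chain COL1A2 had 0 counts in all 6 libraries, where 3 counts correspond to at most 0.161 CPM. That floor takes each count as independent, and would be higher if each read of a pair was counted. The cartilage chains COL2A1, COL11A1 and COL11A2 and the chain COL24A1 had at most 6 counts in any library.

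**Figure D2:**
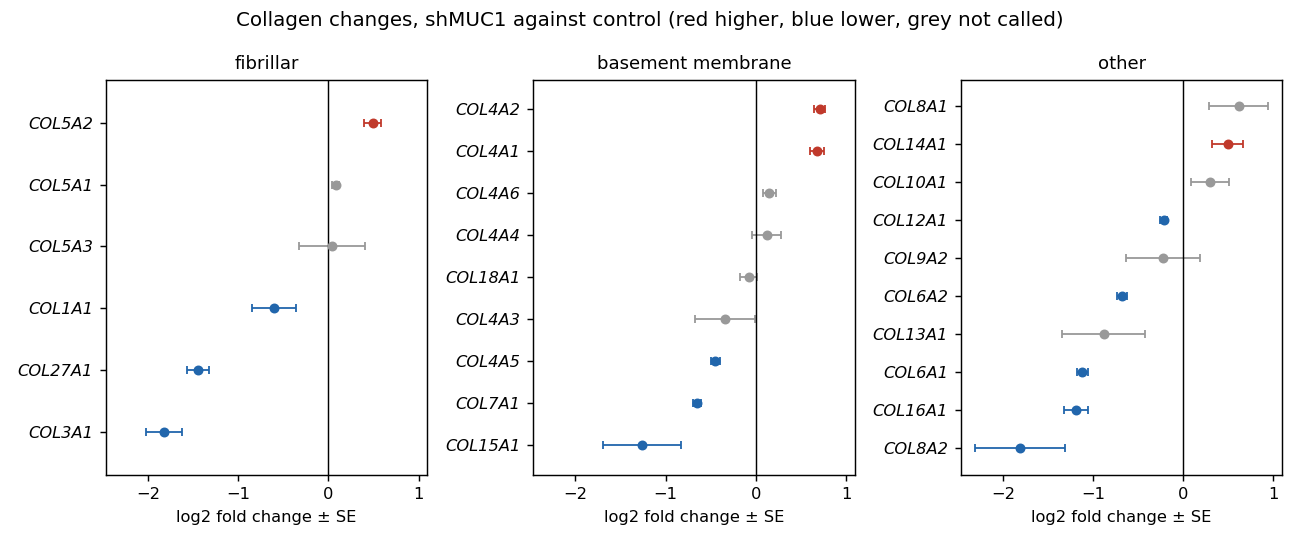
Log2 fold change (shMUC1 against control) with its SE from edgeR for each tested collagen, in 3 panels by class, with called rises in red, called falls in blue and uncalled genes in grey. The basement membrane panel holds called genes on both sides of 0, from -1.26 for COL15A1 to 0.71 for COL4A2.

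All 9 basement membrane collagens were tested, of which 2 (22.2%) rose and 3 (33.3%) fell, beside 25.2% and 23.6% of all genes tested. Their median log2 fold change was -0.08. This median changed sign without control replicate 3 (0.0472), for genes averaging 50 counts or more (0.098) and for type IV genes only (0.14). COL4A1 was at 19.7, 20.9 and 20.8 CPM in control and 30.4, 32.3 and 35.7 CPM in shMUC1 libraries. COL4A2 was at 34.8, 32.8 and 36.7 CPM in control and 56.9, 55.7 and 57.8 CPM in shMUC1 libraries. Neither gene had overlapping groups. COL4A1 rose by 0.67 on the log2 scale (SE 0.0776, adjusted p = 2.83e-09) and COL4A2 by 0.71 (SE 0.0597, adjusted p = 1.43e-12), which is 1.60-fold and 1.63-fold.

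COL4A5, a chain of the type IV molecules of kidney, lung and epithelial basement membranes, moved the other way. It was at 68.1, 68.8 and 67.6 CPM in control and 50.1, 52.0 and 47.6 CPM in shMUC1 libraries, a fall of 0.45 on the log2 scale (SE 0.0525, adjusted p = 4.17e-09). COL4A6, which shares its promoter region and can assemble with it, was at 28.3, 29.7 and 31.0 CPM in control and 30.7, 36.0 and 32.1 CPM in shMUC1 libraries. These groups overlapped, and COL4A6 was not called (log2 fold change 0.15, SE 0.0727, adjusted p = 0.0856). COL4A3 and COL4A4, the chains affected with COL4A5 in Alport disease of the kidney, were at low levels and were not called. COL4A3 was at 1.53 ± 0.38 CPM in control and 1.19 ± 0.452 CPM in shMUC1 cells (SD, n = 3). COL4A4 was at 4.74, 4.80 and 4.96 CPM in control and 5.18, 5.90 and 4.62 CPM in shMUC1 libraries, with overlapping groups (log2 fold change 0.12, SE 0.158, adjusted p = 0.563).

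COL7A1, the chain of the anchoring fibrils that hold epithelium to the underlying matrix, was at 100, 114 and 115 CPM in control and 67.9, 70.2 and 71.2 CPM in shMUC1 libraries. The groups were apart, and COL7A1 fell by 0.65 on the log2 scale (SE 0.0489, adjusted p = 5.91e-14). COL15A1 and COL18A1 encode the collagens of basement membrane zones that release fragments called restin and endostatin. COL15A1 had 25, 28 and 20 counts in control and 8, 12 and 10 counts in shMUC1 libraries (log2 fold change -1.26, SE 0.435, adjusted p = 0.0156), a call lost with DESeq2 and in 3 of the fits that left out 1 library. COL18A1 was at 20.8, 20.6 and 26.8 CPM in control and 21.9, 22.5 and 19.9 CPM in shMUC1 libraries and was not called (log2 fold change -0.08, SE 0.0914, adjusted p = 0.505). Its exons overlap 1401 bases of SLC19A1 exons on the opposite strand, so its counts are uncertain if strand was not used.

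Of the other collagens, 10 of 23 were tested, 1 (10%) rose and 5 (50%) fell, beside 25.2% and 23.6% of all genes tested. The 5 falls include COL8A2, which passed the low-count filter through the control libraries alone. The class had a median log2 fold change of -0.45. The median ran from -0.86 without shMUC1 replicate 2 to -0.28 without control replicate 3, and was -0.65 and -0.67 without shMUC1 replicates 1 and 3, -0.22 with halved counts, -0.88 without the low-count filter and -0.90 with DESeq2. COL6A1 and COL6A2 encode type VI chains, which form beaded filaments around cells, and lie 93046 bases apart on chromosome 21. COL6A1 was at 72.4, 70.7 and 77.9 CPM in control and 35.0, 33.2 and 33.6 CPM in shMUC1 libraries. With no overlap, it was 2.17-fold lower (log2 fold change -1.12, SE 0.0568, adjusted p = 1.03e-18). COL6A2 was at 63.5, 59.7 and 69.9 CPM in control and 39.0, 41.5 and 40.1 CPM in shMUC1 libraries, which were also apart. It fell by 0.68 on the log2 scale (SE 0.0596, adjusted p = 3.86e-12). The third chain of the common type VI molecule, COL6A3, had 2, 2 and 0 counts in control and 0, 3 and 0 counts in shMUC1 libraries.

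Several collagens of this class lie on the surface of fibrils. COL12A1 was at 193, 185 and 198 CPM in control and 172, 164 and 159 CPM in shMUC1 libraries, a small fall of 0.22 on the log2 scale (SE 0.0381, adjusted p = 9.30e-06) with no overlap. COL16A1 was at 10.1, 11.7 and 12.4 CPM in control and 5.07, 5.51 and 4.25 CPM in shMUC1 libraries. It was 2.28-fold lower (log2 fold change -1.19, SE 0.133, adjusted p = 1.50e-09). COL14A1 was the only tested chain of the class called higher, at 4.06, 3.28 and 5.42 CPM in control and 5.61, 6.21 and 6.24 CPM in shMUC1 libraries. Its rise of 0.49 on the log2 scale (SE 0.169, adjusted p = 0.0152) was lost with DESeq2 (adjusted p = 0.0559) and without control replicate 2 (adjusted p = 0.121). COL9A2, a cartilage chain, was at 0.816 ± 0.113 CPM in control and 0.687 ± 0.221 CPM in shMUC1 cells (SD, n = 3).

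The type VIII chains of vessel walls and of the membrane under the corneal endothelium, and type X of growth cartilage, were rare. COL8A2 had 14, 19 and 31 counts in control and 9, 6 and 3 counts in shMUC1 libraries, and fell by 1.81 on the log2 scale (SE 0.499, adjusted p = 0.0027). It passed the low-count filter through the control libraries alone, so it could be tested only by being higher there, and its call carries that limit. COL8A1 was at 1.09, 1.19 and 0.852 CPM in control and 1.74, 1.63 and 1.40 CPM in shMUC1 libraries, which did not overlap, but the difference was not called (adjusted p = 0.118). COL10A1 was at 2.99 ± 0.861 and 3.69 ± 0.186 CPM, and COL13A1, a transmembrane collagen, at 0.809 ± 0.367 and 0.432 ± 0.0715 CPM in control and shMUC1 cells (SD, n = 3). Neither was called.

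Among the 18 collagens without a test, 5 had 0 counts in every library (COL1A2, COL6A5, COL9A1, COL19A1 and COL28A1), and no library had more than 16 counts of any of the rest. COL22A1, a collagen of tissue junctions, had 8, 12 and 14 counts in control and 0, 2 and 0 counts in shMUC1 libraries. COL25A1, a transmembrane collagen of neurons and muscle, had 8, 14 and 16 counts in control and 2, 2 and 2 counts in shMUC1 libraries. Without the filter these were called lower (adjusted p = 0.00112 for COL22A1 and 0.00697 for COL25A1), as they were with DESeq2. COL23A1 had 2, 2 and 5 counts in control and 0 counts in every shMUC1 library, which is too few to show a difference at this depth.

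To compare chains with each other, levels were divided by exon length (CPM per kb), taken as the merged exons of all annotated transcripts of a gene. The length of the transcripts present in these cells was not measured, so the order of chains and the class shares depend on this choice. In control cells COL5A1 led with 31.5 ± 1.68 CPM per kb, followed by COL12A1 with 15.4 ± 0.511, COL6A1 with 13.8 ± 0.706, COL6A2 with 11.9 ± 0.96 and COL7A1 with 9.89 ± 0.742 (SD, n = 3). COL12A1 and COL6A1 were apart by more than their spread, as were COL6A2 and COL7A1. In shMUC1 cells COL5A1 was at 33.2 ± 0.837 and COL12A1 at 13.2 ± 0.511 CPM per kb, and COL6A1 at 6.35 ± 0.178 was level with COL7A1 at 6.30 ± 0.151 and below COL6A2 at 7.46 ± 0.228 CPM per kb. Summed over the 43 genes, the level was 106 ± 5.17 CPM per kb in control and 89.0 ± 1.88 CPM per kb in shMUC1 cells.

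**Figure D3:**
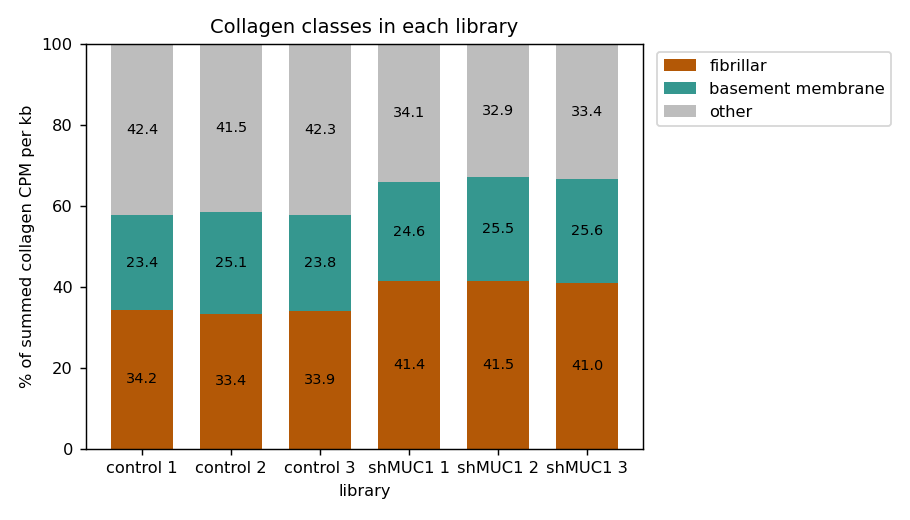
Share of the summed collagen CPM per kb taken by each class in each library, in percent. The fibrillar share is 33.4% to 34.2% in control and 41.0% to 41.5% in shMUC1 libraries, and the share of other collagens is 41.5% to 42.4% and 32.9% to 34.1%.

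The fibrillar share of this sum was 33.9% ± 0.42 in control and 41.3% ± 0.28 in shMUC1 cells (SD, n = 3), and COL5A1 alone took 29.7% ± 0.39 and 37.3% ± 0.153. The share of other collagens was 42.1% ± 0.465 and 33.5% ± 0.572, of which COL6A1 went from 13.0% ± 0.0984 to 7.14% ± 0.258. The basement membrane share was 24.1% ± 0.874 and 25.2% ± 0.582, and its groups overlapped. Shares add up to a fixed whole, so that one rises where another falls, and the COL5A1 level itself was not called.

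**Figure D4:**
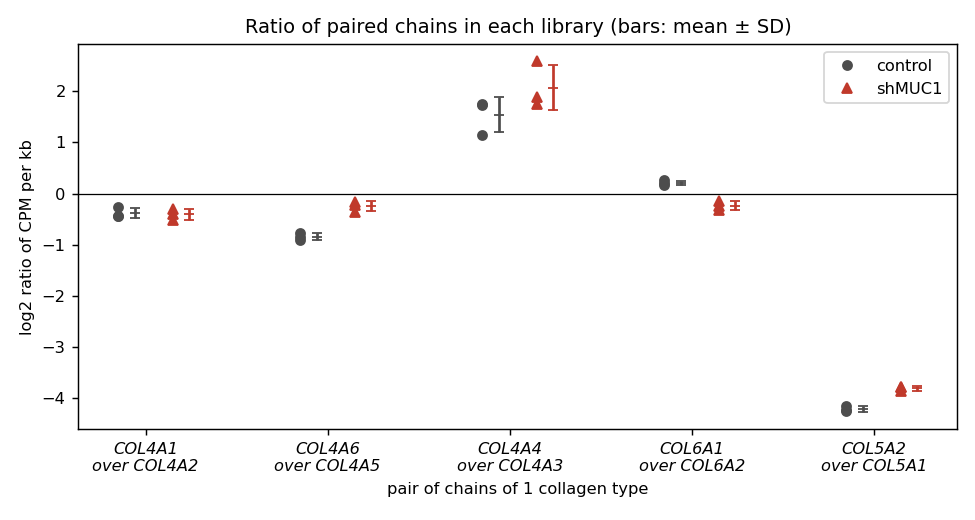
Log2 ratio of CPM per kb between chains of 1 collagen type in each library, with control as grey circles, shMUC1 as red triangles and bars for mean ± SD. The COL4A1 to COL4A2 ratio overlaps between groups, whereas the COL4A6 to COL4A5, COL6A1 to COL6A2 and COL5A2 to COL5A1 ratios do not.

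Chains that share a molecule were compared as log2 ratios of CPM per kb, in 5 pairs chosen after their values were seen, with an exact two-sided permutation test that cannot go below 0.1 with 3 libraries a group. COL4A1 over COL4A2 was -0.37 ± 0.0977 in control and -0.41 ± 0.105 in shMUC1 cells (exact permutation p = 0.7). COL4A6 over COL4A5, the other head-to-head pair with enough counts, was -0.85 ± 0.0694 in control and -0.25 ± 0.0929 in shMUC1 cells (exact permutation p = 0.1, the smallest possible). COL4A4 over COL4A3 was 1.54 ± 0.345 and 2.07 ± 0.447 (exact permutation p = 0.2) and overlapped. COL6A1 over COL6A2 was 0.21 ± 0.0449 in control and -0.23 ± 0.0833 in shMUC1 cells. The ratio fell, but its change of sign depends on the exon lengths used. COL5A2 over COL5A1 was -4.21 ± 0.0565 and -3.80 ± 0.0484 (SD, n = 3 in each; exact permutation p = 0.1 for both pairs).

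Collagen chains are hydroxylated and folded in the endoplasmic reticulum, and 24 genes of this step were tested, of which 6 (25.0%) rose and 10 (41.7%) fell, beside 25.2% and 23.6% of all genes tested (median log2 fold change -0.05). CRTAP, P3H1 and PPIB encode the complex that modifies 1 proline of fibrillar chains. CRTAP was at 440, 438 and 426 CPM in control and 187, 197 and 170 CPM in shMUC1 libraries, which is 2.35-fold lower (log2 fold change -1.23, SE 0.0383, adjusted p = 3.46e-25). P3H1 was at 106, 110 and 102 CPM in control and 56.5, 61.9 and 57.0 CPM in shMUC1 libraries (log2 fold change -0.85, adjusted p = 2.61e-17). Both genes were lower in every shMUC1 library, and PPIB fell by 0.27 on the log2 scale (adjusted p = 0.00233). The largest rises among members that averaged 100 counts or more were FKBP14, a prolyl isomerase, at 51.3, 54.5 and 47.5 CPM in control and 78.4, 81.1 and 78.2 CPM in shMUC1 libraries (adjusted p = 1.15e-12), and MIA2, a cargo receptor for export, with a log2 fold change of 0.54 (adjusted p = 5.24e-07).

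**Figure D5:**
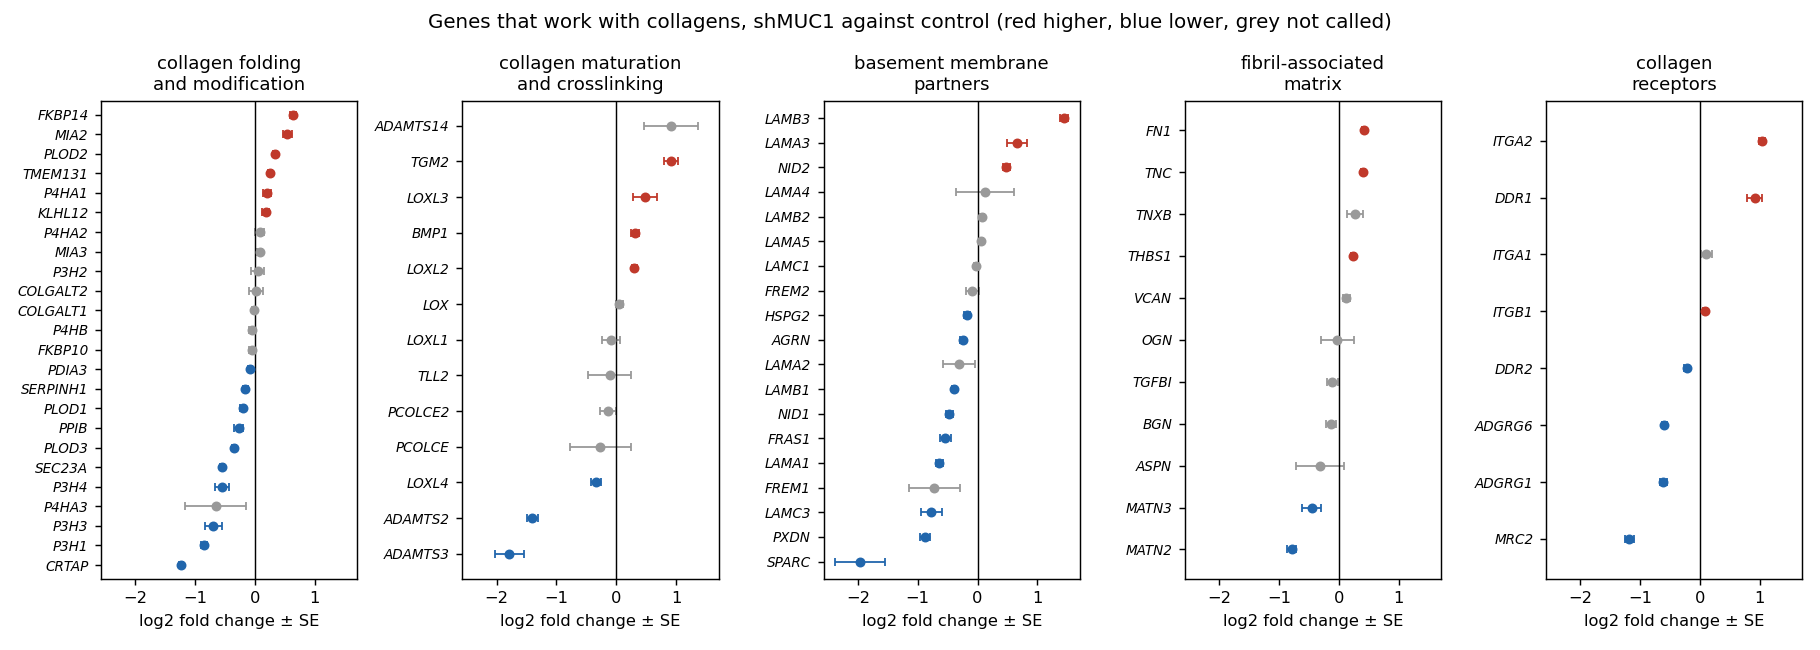
Log2 fold change (shMUC1 against control) with its SE from edgeR for the tested members of 5 lists of genes that act on or with collagens, with called rises in red, called falls in blue and uncalled genes in grey. Each panel has called genes on both sides of 0.

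Outside the cell, chains are trimmed and crosslinked, and of 16 genes 13 were tested, 4 (30.8%) rose and 3 (23.1%) fell, shares near the 25.2% and 23.6% of all genes (median log2 fold change -0.09). ADAMTS2, the protease that removes the amino-terminal propeptide of types I and III, was at 26.8, 28.6 and 29.5 CPM in control and 11.2, 11.3 and 9.51 CPM in shMUC1 libraries. It was 2.64-fold lower with no overlap (log2 fold change -1.40, SE 0.0911, adjusted p = 1.16e-15). BMP1, the protease of the carboxy-terminal propeptide, rose by 0.32 on the log2 scale (adjusted p = 5.63e-05). The crosslinking enzyme TGM2 rose by 0.91 (adjusted p = 1.70e-08), and the lysyl oxidase gene LOXL4 fell by 0.33 on the log2 scale (adjusted p = 0.00124).

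Of 20 basement membrane partners 19 were tested, 3 (15.8%) rose and 9 (47.4%) fell, beside 25.2% and 23.6% of all genes (median log2 fold change -0.25). Without control replicate 3 the number that rose was 5. LAMB3 and LAMA3 encode laminin chains of epithelial basement membranes. LAMB3 was at 18.4, 20.5 and 22.3 CPM in control and 55.7, 56.2 and 55.6 CPM in shMUC1 libraries, or 2.73-fold higher (log2 fold change 1.45, SE 0.069, adjusted p = 1.50e-19). LAMA3 was at 4.24, 3.28 and 4.10 CPM in control and 5.61, 5.86 and 6.99 CPM in shMUC1 libraries (log2 fold change 0.66, adjusted p = 0.00105). For both genes every shMUC1 library was above every control library. PXDN, the peroxidase that makes the sulfilimine bond between type IV molecules, went from 33.0, 32.8 and 37.0 CPM to 20.9, 18.0 and 16.7 CPM (log2 fold change -0.88, adjusted p = 2.03e-11), and the laminin chain LAMC3 fell by 0.77 on the log2 scale (adjusted p = 3.94e-04).

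Of 19 fibril-associated matrix genes 11 were tested, 3 (27.3%) rose and 2 (18.2%) fell, near the 25.2% and 23.6% of all genes (median log2 fold change -0.02). The number that fell was 1 without control replicate 1, shMUC1 replicate 1 or shMUC1 replicate 2, and 3 without the low-count filter. Fibronectin (FN1), on which many cells assemble collagen fibrils, was at 962 ± 17.7 CPM in control and 1285 ± 11.4 CPM in shMUC1 cells (SD, n = 3; log2 fold change 0.42, adjusted p = 8.37e-16). The matricellular gene TNC rose by 0.40 (adjusted p = 5.44e-12), and the matrilins MATN2 and MATN3 fell by 0.79 and 0.46 on the log2 scale (adjusted p = 5.13e-11 and 0.0187).

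Of 12 collagen receptors 8 were tested, 3 (37.5%) rose and 4 (50%) fell, beside 25.2% and 23.6% of all genes (median log2 fold change -0.07). ITGA2, the collagen-binding integrin chain of epithelium, was at 46.8, 45.6 and 46.2 CPM in control and 95.8, 90.4 and 97.6 CPM in shMUC1 libraries, or 2.05-fold higher (log2 fold change 1.03, SE 0.0498, adjusted p = 2.13e-19). DDR1, a receptor tyrosine kinase for collagen, was at 5.47, 5.99 and 6.74 CPM in control and 11.1, 12.4 and 10.9 CPM in shMUC1 libraries (log2 fold change 0.91, adjusted p = 1.21e-07). MRC2, which takes up collagen for degradation, was at 41.3, 33.6 and 39.9 CPM in control and 17.0, 17.6 and 15.9 CPM in shMUC1 libraries (log2 fold change -1.18, SE 0.0815, adjusted p = 6.33e-15). The groups did not overlap for any of these 3 genes, and the type III collagen receptor ADGRG1 fell by 0.61 on the log2 scale (adjusted p = 4.01e-12).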

How the data were processed

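RNA from 3 control and 3 shMUC1 cultures was sequenced after stranded poly(A) library preparation. The values deposited by the authors are raw counts, with 1 row per gene symbol. The submitters' processing notes name CASAVA 1.8.2, STAR 2.7.9a, featureCounts, DESeq2 1.24.0 and GRCh38.p7; the annotation release and the strand setting of the counting are not given in the sources used here. Of counts from 1 to 20, 68.8% to 70.5% per library were even, a pattern that arises when each read of a pair is counted, and halved counts were also tried.

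Counts were tested with edgeR 4.0.16 (quasi-likelihood, TMM scaling, filterByExpr with a minimum of 10 counts, group as the only term) in R 4.3.3, two-sided, with Benjamini-Hochberg adjustment over 15355 genes and a threshold of 0.05. CPM used TMM-scaled library sizes, and the SE was the log2 fold change divided by the square root of F. DESeq2 1.42.0 and limma 3.58.1 (voom) were alternatives. On simulated counts for these groups and 15355 genes, 90 genes were changed by 1 and 110 by 2 on the log2 scale, a far smaller share than was called in the data. Among genes that passed its filter, edgeR called 79 of 88 changed by 1 and 106 of 106 changed by 2, with 9 false calls among 14935. Genes lost to the filter were not scored, and the excess of even counts was not simulated.

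Collagens called, or with a mean of at least 100 counts, were given in full. Of each partner list, the 2 largest rises and falls with a mean of at least 100 counts were named; PPIB was added after its value was seen. One gene of the basement membrane partner list is not reported here and was left out of its counts. Exon lengths and UTRs came from GENCODE 29. The members, classes and lists were chosen with earlier results of these data known, and the lists were written from general knowledge. UTRs were first taken from every basic transcript and later from 1 transcript a gene, after 2 words were seen to lie in shortened transcripts. Floors (3 counts) cover counting error only, whereas SDs and SEs include the spread between the cultures.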

Additional observations from a re-analysis of the deposited data

How the results depend on the processing

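Of 364 values for the 25 tested collagens under the alternatives, 338 kept their direction and side of the threshold. So did 12 of the 15 called collagens in every setting that tested them, the exceptions being COL1A1, COL15A1 and COL14A1. Settings that did not test a gene were not scored, and COL8A2, among the 12, was tested in 13 of 15. With halved counts, and for genes averaging 50 counts or more, 9 collagens were called lower. COL5A3 turned to -0.0485 with limma-voom and ranged from -0.21 to 0.35 with 1 library left out, including -0.17, -0.057 and -0.21, and COL18A1 ranged from -0.15 to 0.0472, the latter without control replicate 3. The count of collagens higher was 2 past 1.5-fold and 0 past 2-fold, and the count lower was 6 past 2-fold. With 1 library left out, 3 to 5 collagens were higher and 9 to 12 lower. Basement membrane partners called higher ranged from 3 to 5 with 1 library left out, at 5 without control replicate 3. Fibril-associated genes called lower were 3 when unfiltered and ranged from 1 to 2 with 1 library left out, at 1 without control replicate 1, shMUC1 replicate 1 or shMUC1 replicate 2. The fibrillar median was -0.63 when unfiltered, -0.62 for genes averaging 50 counts or more and -0.67 with DESeq2, and ran from -0.39 to -0.10 with 1 library left out, the latter without control replicate 3. The basement membrane median was 0.098 for genes averaging 50 counts or more and 0.14 for type IV genes only, and ran from -0.14 to 0.0472, again without control replicate 3. The median of the other class was -0.88 without a filter, -0.90 with DESeq2 and -0.22 with halved counts, and ran from -0.86 (without shMUC1 replicate 2) to -0.28 (without control replicate 3). These settings test different numbers of genes; the cause of the remaining moves was not tested. Replicate numbers did not pair the samples (correlations of 0.0049, -0.032 and -0.038 for the same number). With the replicate number as a block, 5 collagens were higher and 10 lower: COL1A1 was no longer called (log2 fold change -0.54, adjusted p = 0.0718, edgeR) and COL5A1 was (0.081, adjusted p = 0.0431). Leaving out mitochondrially encoded genes was chosen after seeing the data, as was the use of 1 transcript a gene for UTRs in place of any basic transcript. The original rule gave 28 collagens with the miR-29 word, and a share of 18.2% over all genes.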

Other observations

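The 7-base word ATCAGTA, which earlier results on these data had singled out among 3' UTR words, was counted in the collagens as a description. It stood in 6 of 43 collagens, in 3 of the 25 tested (12.0%), and in 9.71% of 13015 genes tested. None of the 11 lower collagens held it (0 of 11), against 1 of 4 higher (COL4A1) and 2 of 10 uncalled (COL4A4 and COL8A1), numbers too small to set apart from the share over all genes. Over all genes the median log2 fold change was -0.15 with the word and 0.025 without it, and 45.7% of genes with the word were called lower against 22.8% without it. Because the word was picked from these same data, this contrast is not an independent test of it. Genes with the word had longer UTRs (median 3052.5 bases) than genes without it (904 bases). With UTRs from any basic transcript, COL14A1 was added and the number came to 7 collagens. One window (29 bases, GRCh38, minus strand) is shown because this gene rose:
COL4A1, chr13:110149286-110149314: tgaatcacagtATCAGTAttttcacacgt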
